A study of Mus musculus with 18 samples.

Results

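The neurotrophins are secreted growth factors that keep neurons alive and adjust the strength of their synapses. The 5 genes described here are those whose symbols appear in the 3 deposited comparisons as Bdnf, Ntf3, Ntrk2, Ntrk3 and Ngfr, chosen by name from the 24015 rows of each table. Bdnf encodes brain-derived neurotrophic factor and Ntf3 encodes neurotrophin-3. Ntrk2 and Ntrk3 encode their main tyrosine kinase receptors, TrkB and TrkC, and Ngfr encodes p75NTR, a receptor of the tumour necrosis factor receptor family that binds every neurotrophin and their uncleaved precursors. All 5 had an adjusted p-value in all 3 tables.

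Neurotrophins are made as precursors that furin and prohormone convertases cut in the cell, or that plasmin and matrix metalloproteinases cut outside it. The mature factor dimerises its Trk receptor, which signals through the Ras and MAP kinase, PI3 kinase and phospholipase C gamma routes. In the dentate gyrus, Bdnf is made by granule neurons and carried along their mossy fibre axons, its transcription follows activity and calcium, and Ntf3 is a marker of the same neurons. Both Trk genes also give truncated receptors without a kinase, and in the case of Ntrk2 astrocytes make much of that form. The tables count whole genes, so receptor forms are not separated here.

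The libraries came from the dentate gyrus of C57BL/6 mice aged 8 weeks, 18 libraries in 6 groups of 3, each library from its own animal. Animals of EYFP_OE overexpressed the fluorescent protein EYFP, and those of cFos_OE c-Fos, which forms the transcription factor AP-1 together with Jun proteins. Animals of shRNA-Ctrl_E0 and of shRNA-Ctrl_E1 carried a control hairpin RNA. Those of shRNA-cFos_E0 and of shRNA-cFos_E1 carried a hairpin named for c-Fos. The labels do not spell out E0 and E1. The deposited tables set E1 against a sham state, and the series concerns neuronal activation. How the constructs were delivered, and what drives them, is not given in the sources used here. Fos rose at E1 in the authors' deposited table by 3.36 ± 0.14 (log2 ± SE) with shRNA-Ctrl and by 2.33 ± 0.15 with shRNA-cFos, a difference of -1.03 ± 0.20. Fos was 3.34 ± 0.20 higher with overexpression in the authors' deposited table. The sign of that comparison was itself taken from Fos, so its direction is assumed, and all overexpression directions below rest on it. The 14 granule neuron markers were all measured, the lowest group mean being 219 normalized counts for Tdo2. The files hold comparisons and no values per library, so depth per library is unknown. Errors of a single comparison below are the authors' standard errors over 3 against 3 animals. Errors of a difference between 2 comparisons combine the 2 standard errors.

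Bdnf is known for several promoters, each of which splices its own first exon to a shared coding exon. RefSeq (build GRCm38.p6) lists 7 start windows for Bdnf, 2 for Ntf3, 1 for Ntrk2 and 1 for Ngfr, so 4 of the 5 genes matched, without Ntrk3. The 250 bases before each start were searched on both strands for the AP-1 element TGANTCA, since c-Fos is the factor altered in the study. They were also searched for TGACGTCA, the full cAMP response element bound by CREB, for its core TGACG, which the full element contains, and for the E-box CACGTG. The AP-1 element was found in 1 of the 7 Bdnf windows, beside 6.75% of the 32851 windows of all genes. TGACG was found in 1 other Bdnf window, beside 17.8% of all windows, and the full element in 0 of 7, beside 1.55% of all. CACGTG was found in 0 Bdnf windows and in 1 of the 2 Ntf3 windows, beside 6.02% of all. The other Ntf3 window and those of Ntrk2 and Ngfr held none of the 4 motifs. The 2 Bdnf windows with a match are printed because Bdnf is the one of the 5 genes with a large rise at E1. Capitals mark TGANTCA in the first, which begins 152 bases before the start, and CGTCA, the other strand of TGACG, in the second, which begins 35 bases before the start. Both windows lie on the plus strand outside annotated exons, chr2:109676782-109677031 before the transcript Bdnf-206 and chr2:109692186-109692435 before Bdnf-209.
Bdnf window with TGANTCA: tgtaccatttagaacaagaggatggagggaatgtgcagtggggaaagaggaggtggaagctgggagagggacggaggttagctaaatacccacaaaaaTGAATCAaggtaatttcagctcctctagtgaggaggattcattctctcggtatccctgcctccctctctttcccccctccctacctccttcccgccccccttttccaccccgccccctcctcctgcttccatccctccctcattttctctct
Bdnf window with CGTCA: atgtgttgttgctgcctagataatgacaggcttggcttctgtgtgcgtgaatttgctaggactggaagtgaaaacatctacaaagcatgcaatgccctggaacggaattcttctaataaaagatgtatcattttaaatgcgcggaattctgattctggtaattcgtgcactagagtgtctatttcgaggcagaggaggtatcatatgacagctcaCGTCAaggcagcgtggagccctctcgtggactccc
A match describes these letters only. The counts are per gene, so they do not show which of the 7 starts was used.

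At E1 with shRNA-Ctrl, the authors' deposited table gave 2 of the 5 genes an adjusted p under 0.05, Bdnf higher and Ntf3 lower, where 33.0% of all tested genes did, 16.8% higher and 16.2% lower. With shRNA-cFos the authors' deposited table gave 3 of 5, Bdnf and Ntrk3 higher and Ntf3 lower, where 28.1% of all did, 16.3% higher and 11.7% lower. With overexpression the authors' deposited table gave 1 of 5, Ntf3, which was lower, where 13.0% of all did, 7.1% higher and 5.86% lower. The E1 response differed between the hairpins for 1 of 5, Ntrk3, higher with shRNA-cFos, where it did for 23.8% of all genes, 12.9% higher and 11.0% lower. With 5 genes these shares say little beyond the single values that follow.

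Bdnf rose about 6-fold at E1 with the control hairpin and about 5-fold with the hairpin named for c-Fos. With shRNA-Ctrl, the group means implied by the authors' deposited table were 1116 normalized counts at E0 and 6654 at E1. In the authors' deposited table the change was 2.58 ± 0.10 on the log2 scale, or 5.96-fold (95% interval 5.23 to 6.80, DESeq2 adjusted p = 5.2e-153). Bdnf ranked 35 from the top of 15675 tested genes. With shRNA-cFos, the means implied by the authors' deposited table were 945 at E0 and 4666 at E1, a log2 fold change of 2.30 ± 0.08, or 4.94-fold (95% interval 4.45 to 5.48, adjusted p = 2.8e-197). Its rank in that arm was 30 of 14388. Levels cannot be read across these tables, which were normalized separately.

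The rise of Bdnf was smaller with shRNA-cFos by -0.27 ± 0.12 on the log2 scale (95% interval -0.51 to -0.03), computed from the authors' deposited tables. This difference did not pass the test (Benjamini-Hochberg adjusted p = 0.093 over all genes tested in both tables, normal approximation from the DESeq2 standard errors). At this estimate the fold rise with shRNA-cFos is 0.83 of that with shRNA-Ctrl. After the shRNA tables were scaled to each other, the log2 ratio of Bdnf in shRNA-cFos over shRNA-Ctrl was 0.19 at E0 and -0.08 at E1. Without that scaling the ratios were -0.24 and -0.51. They carry no error and no test.

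Overexpression of c-Fos gave no called change in Bdnf. The authors' deposited table implied 934 normalized counts in EYFP_OE and 1010 in cFos_OE, a log2 fold change of 0.11 ± 0.14 (95% interval -0.15 to 0.38, adjusted p = 0.75). The standard error of Bdnf in this comparison was larger than that of 96.5% of the 200 genes nearest to it in mean count, whose median standard error was 0.085. At that error a deposited change, which the fit shrank toward 0, had to reach 1.29-fold to be called. Which of the 6 libraries spread the values was not analysed here. The overexpression value lay 2.46 ± 0.17 below the E1 response with shRNA-Ctrl and 2.19 ± 0.16 below that with shRNA-cFos, by the authors' deposited tables (adjusted p = 8.7e-47 and 2.5e-42). Those 2 differences set unlike contrasts side by side and were added after the values were seen. Called increases at E1 with both hairpins without a call under overexpression, as for Bdnf, were found for 683 of 14341 genes tested in all tables.

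**Figure D1:**
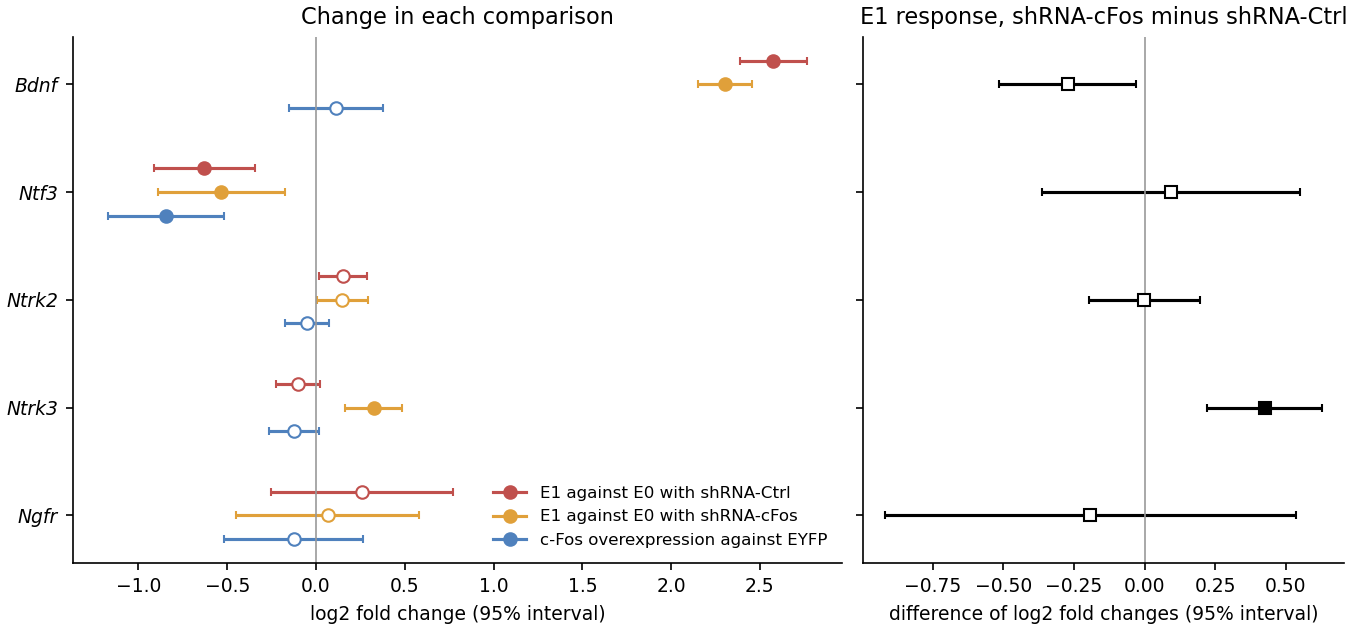
Log2 fold change of the 5 genes in each comparison (left) and the difference of the E1 responses between the hairpins (right), with 95% intervals from the standard errors. Filled symbols passed an adjusted p of 0.05: Bdnf rose in both E1 comparisons, Ntf3 fell in all 3, and Ntrk3 differed between the hairpins.

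The 5 genes most like Bdnf over the 3 comparisons, by Euclidean distance between log2 fold changes, were Rgs2, Grasp, Dusp4, C2cd4b and Nfil3. Rgs2, a brake on G-protein signalling, was nearest at a distance of 0.20, with 2.65 (shRNA-Ctrl), 2.23 (shRNA-cFos) and -0.06 (overexpression) in the authors' deposited tables. Nfil3, a leucine zipper transcription factor, was the fifth at 0.37, with 2.75, 2.04 and 0.31 there. In all, 13 genes lay within 0.5 of Bdnf. The measure rests on 3 values a gene.

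Ntf3 moved opposite to Bdnf at E1 and was the only one of the 5 called in all 3 comparisons. Its implied means for shRNA-Ctrl, from the authors' deposited table, were 252 normalized counts at E0 and 163 at E1, a log2 fold change of -0.63 ± 0.14 (0.65-fold, adjusted p = 0.00012). With shRNA-cFos they were 154 and 106 in the authors' deposited table, a log2 fold change of -0.53 ± 0.18 (0.69-fold, adjusted p = 0.016). With overexpression they were 199 in EYFP_OE and 110 in cFos_OE in the authors' deposited table, a log2 fold change of -0.85 ± 0.17 (0.56-fold, adjusted p = 1.2e-05). In the overexpression table Ntf3 ranked 32 from the bottom of 15827 tested genes. The call with shRNA-cFos ended at an adjusted p of 0.01.

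No difference between the falls of Ntf3 passed the test. Computed from the authors' deposited tables, shRNA-cFos minus shRNA-Ctrl was 0.09 (95% interval -0.36 to 0.55, adjusted p = 0.82). Overexpression minus shRNA-Ctrl was -0.22 (95% interval -0.65 to 0.21, adjusted p = 0.56). As for Bdnf, the latter difference sets unlike contrasts side by side and was added after the values were seen. These intervals leave room for differences of up to 0.55 and 0.65 in log2 size, so they do not show equal falls. They hold for deposited values, which were shrunken toward 0, most strongly with overexpression. With the shrinkage removed, Ntf3 was at -0.67 ± 0.15 with shRNA-Ctrl and -1.07 ± 0.21 with overexpression, which are farther apart. Decreases called in all 3 tables were found for 46 of 14341 genes, or 0.32%. By the distance used above, the nearest to Ntf3 were Foxn2, Opalin, Cecr2, Nr3c1 and Gabrd. Nr3c1, the glucocorticoid receptor gene, stood at -0.54, -0.64 and -0.53 in the authors' deposited tables, and Gabrd, the delta subunit of extrasynaptic GABA-A receptors, at -0.92, -0.63 and -0.67.

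Granule neuron markers moved in part with Ntf3. Calls covered 85.7%, 57.1% and 50% of them (shRNA-Ctrl, shRNA-cFos, overexpression), beside 33.0%, 28.1% and 13.0% of all tested genes. With shRNA-Ctrl the authors' deposited table had 10 of 14 falling and 2 rising, and their summed level went from 39577 to 30133 normalized counts. With overexpression the authors' deposited table had 6 falling and 1 rising, with sums of 34521 and 30870. With shRNA-cFos, where Ntf3 also fell, the authors' deposited table had 7 rising and 1 falling, with sums of 19674 and 23042. None of these markers was near 0 in any group. Their part in the Ntf3 values was not tested, and in whole tissue fewer cells of a type and less RNA per cell cannot be told apart.

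**Figure D2:**
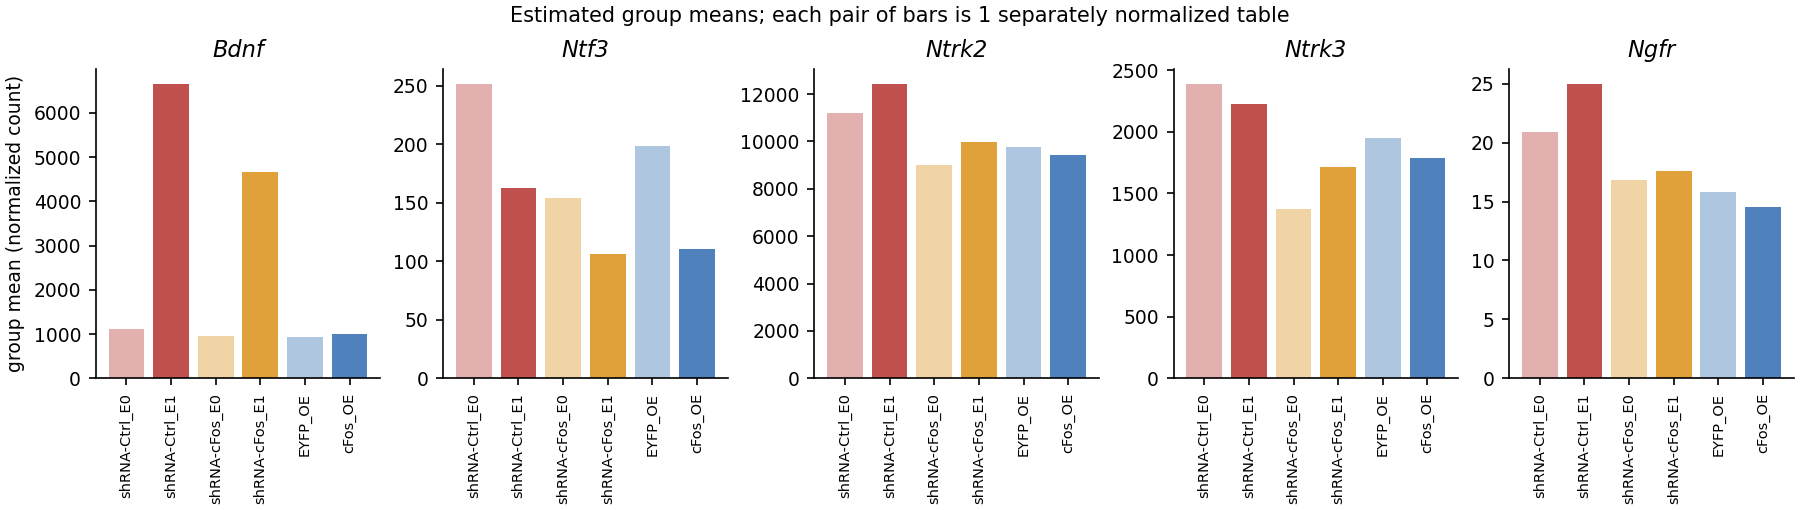
Estimated group means of the 5 genes in normalized counts, split from each deposited mean by its fold change, with no error bars because no values per library were used. Heights compare only within a pair of one colour: Bdnf stands at 1116 and 6654 with shRNA-Ctrl, and Ntf3 is lower in the darker bar of every pair.

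Of the receptor genes, Ntrk3 alone passed the test, and in 1 of the 3 comparisons. Ntrk2, the TrkB gene, was implied at 11201 normalized counts at E0 and 12428 at E1 with shRNA-Ctrl in the authors' deposited table, a log2 fold change of 0.15 ± 0.07 (adjusted p = 0.080). With shRNA-cFos it was implied at 9009 and 9983 in the authors' deposited table, again 0.15 ± 0.07 (adjusted p = 0.11). With overexpression it was implied at 9746 and 9418 in the authors' deposited table, or -0.05 ± 0.06 (adjusted p = 0.77). None of these passed. The 95% intervals run from 0.01 to 0.29 in both E1 comparisons and from -0.17 to 0.07 with overexpression, so they leave no room for a 1.5-fold change of Ntrk2. The difference between the hairpins was -0.002 ± 0.10 (95% interval -0.20 to 0.19), computed from the authors' deposited tables.

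Ntrk3, the TrkC gene, was the only one of the 5 whose E1 response differed between the hairpins. With shRNA-Ctrl it was implied at 2388 normalized counts at E0 and 2228 at E1 in the authors' deposited table, a log2 fold change of -0.10 ± 0.06 that did not pass (adjusted p = 0.23). With shRNA-cFos it rose from 1370 to 1716 in the authors' deposited table, by 0.32 ± 0.08 (1.25-fold, adjusted p = 0.00069). The difference, shRNA-cFos minus shRNA-Ctrl, was 0.42 ± 0.10 (95% interval 0.22 to 0.63, adjusted p = 0.00053), as the authors' deposited tables give it. With a fold minimum of 1.5 neither the rise nor the difference was called. After scaling between the tables, the log2 ratio of shRNA-cFos over shRNA-Ctrl was -0.37 at E0 and 0.06 at E1, values without a test. With overexpression Ntrk3 was implied at 1949 and 1786 in the authors' deposited table, or -0.13 ± 0.07 (adjusted p = 0.31).

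Some cell type lists differed between the hairpins in both directions, granule neuron, astrocyte and meningeal markers in that of Ntrk3. Over all genes tested in both arms, the response was higher with shRNA-cFos for 12.9% and lower for 11.0%. Computed from the authors' deposited tables, the E1 response was higher with shRNA-cFos for 10 of 14 granule neuron markers and lower for 0, the median difference being 0.60. For astrocyte markers it was higher for 6 of 12 and lower for 1 in the same calculation. Their summed level was 93852 and 91763 normalized counts with shRNA-Ctrl and 63132 and 82802 with shRNA-cFos, from the authors' deposited tables. Slc1a2 alone weighed most in these sums, with a mean of 42250 in the shRNA-Ctrl comparison and 34501 in that of shRNA-cFos. It rose by 0.64 ± 0.09 in the latter. For interferon response genes the E1 response was lower with shRNA-cFos for 14 of 14, the median difference being -1.84, and for reactive astrocyte markers lower for 6 of 10. Microglial markers had 7 of 12 lower and endothelial and mural markers 4 of 10, with none higher, and meningeal and choroid plexus markers 3 of 6 higher and none lower. Few markers of the other lists differed. Interneuron markers had 1 of 10 higher and 0 lower, and oligodendrocyte markers 0 higher and 1 of 10 lower. Of 7 pyramidal neuron markers tested, 1 was higher and 1 lower. The part of all these markers in the Ntrk3 difference was not tested. By the distance used above, the genes nearest to Ntrk3 were Frmpd4, Ttc7b, Pebp1, Arhgap5 and Rnft2. Within 0.5 of it lay 6417 genes. Its 3 values are small, so that radius also takes in genes with no change, and the count does not show a shared pattern.

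Ngfr, the p75NTR gene, was scarce. Its mean in the authors' deposited tables was 22.9 normalized counts in the shRNA-Ctrl comparison, 17.2 in that of shRNA-cFos and 15.2 in that of overexpression. The log2 fold changes in the authors' deposited tables were 0.26 ± 0.26, 0.07 ± 0.26 and -0.13 ± 0.20, with adjusted p-values of 0.49, 0.88 and 0.82. At these errors a deposited change, which the fit shrank toward 0, had to reach 1.55-fold, 1.57-fold and 1.46-fold to be called. Before shrinkage the change needed is larger, so these bounds are no limit of detection. With the shrinkage removed, an uncertain step for Ngfr, its values were 0.36 ± 0.36, 0.12 ± 0.49 and -0.21 ± 0.33. Per kilobase of merged exons in GENCODE M21, the levels implied at E0 with shRNA-Ctrl were 581 normalized counts for Ntrk2, 180 for Bdnf, 147 for Ntf3, 79.1 for Ntrk3 and 6.06 for Ngfr. These lengths include exons of all annotated forms and may not be those the authors counted. At E1 with shRNA-Ctrl the per-kilobase level of Bdnf, 1070, stood above the 644 of Ntrk2.

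The other marker lists are given once, by calls in the authors' deposited tables for shRNA-Ctrl, then shRNA-cFos, then overexpression. Over all tested genes, 16.8%, 16.3% and 7.1% were higher and 16.2%, 11.7% and 5.86% lower. Interneuron markers had 6, 6 and 0 of 10 higher and 0, 0 and 2 lower. Endothelial and mural markers had 2, 1 and 0 of 10 higher and 0, 2 and 5 lower, and oligodendrocyte markers 2, 0 and 0 of 10 higher and 0, 1 and 0 lower. Of pyramidal neuron markers 1 was lower in each and 0 were higher. Meningeal and choroid plexus markers had 0, 0 and 1 higher and 4, 0 and 0 lower. With shRNA-Ctrl, 4 of 10 reactive astrocyte markers and 9 of 12 microglial markers were higher. In the shRNA-cFos arm, 6 of 10 reactive astrocyte markers were lower, and of 12 microglial markers 6 were lower and 1 higher. Astrocyte markers had 2, 8 and 1 of 12 higher and 0, 0 and 3 lower. Interferon response genes were higher for 14 of 14, lower for 12 and higher for 4 in the same order. The part of these markers in the values of the 5 genes was not tested.

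The plot of E1 responses sets the 5 genes among all genes tested in both arms.

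**Figure D3:**
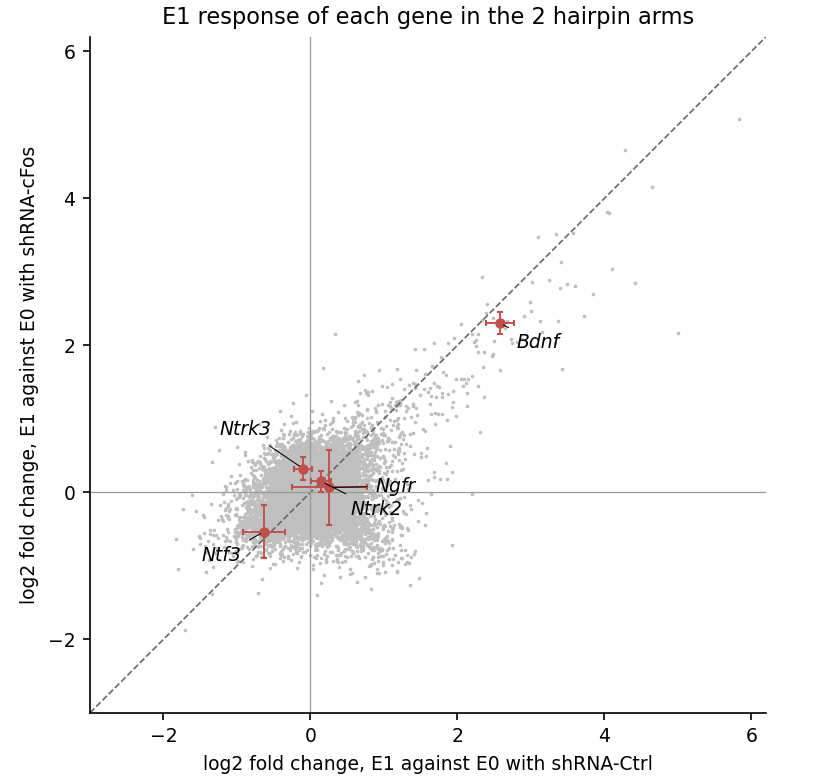
E1 response of every gene tested in both shRNA tables (grey, log2 fold change with shRNA-Ctrl on the horizontal and shRNA-cFos on the vertical axis), with the 5 genes in red and their 95% intervals. The dashed line marks equal responses: Bdnf sits at 2.58 and 2.30 among the strongly induced genes, Ntf3 lies below 0 on both axes, and Ntrk3 lies above the line.

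Of the other genes of the family, Ntf5, which encodes neurotrophin-4, and the sorting receptor genes Sort1 and Sorcs2 are described. Sort1 encodes sortilin, a partner of p75NTR in binding precursor neurotrophins that also sorts BDNF for secretion. It fell with shRNA-Ctrl, at -0.30 ± 0.08, and rose with shRNA-cFos by 0.33 ± 0.08 in the authors' deposited tables (adjusted p = 0.0017 and 0.00082). The difference was 0.62 ± 0.12 (adjusted p = 3.6e-06), computed from the authors' deposited tables. Sort1 also fell with overexpression, at -0.38 ± 0.07 in the authors' deposited table (adjusted p = 7.0e-06). Sorcs2 passed in none of the 4 tests. Ntf5 had low means in the authors' deposited tables, at most 4.90 normalized counts, and gives no reading here.

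Enzymes that cut precursor neurotrophins rose in part. Of 14 genes in this list, 11 were tested. The authors' deposited tables called 4 higher and 2 lower with shRNA-Ctrl, 5 higher and 0 lower in the shRNA-cFos arm, and 2 in each direction with overexpression. These are 54.5%, 45.5% and 36.4% of those tested, beside 33.0%, 28.1% and 13.0% of all tested genes. The medians were 0.13, 0.28 and 0.06. Pcsk1, a prohormone convertase of the regulated secretory pathway, rose by 1.64 ± 0.15 with shRNA-Ctrl and 1.07 ± 0.12 in the shRNA-cFos arm in the authors' deposited tables, and its response was lower with shRNA-cFos by -0.57 ± 0.20 (adjusted p = 0.021). Furin, the convertase of the trans-Golgi network, rose by 0.37 ± 0.10 and 0.36 ± 0.10 in the authors' deposited tables. Pcsk2 fell with shRNA-Ctrl, at -0.42 ± 0.12, and rose with shRNA-cFos, at 0.66 ± 0.10, in the authors' deposited tables, a difference of 1.08 ± 0.16 (adjusted p = 1.0e-09). It fell with overexpression, at -0.71 ± 0.09 in the authors' deposited table. Pcsk5 fell with shRNA-Ctrl, at -0.46 ± 0.10 in the authors' deposited table, and differed between hairpins by 0.51 ± 0.15.

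Plat, tissue plasminogen activator, which makes plasmin, rose with overexpression by 0.87 ± 0.09 in the authors' deposited table (adjusted p = 1.1e-18). Plat was at 0.07 ± 0.12 and 0.09 ± 0.12 at E1 there, and neither passed (adjusted p = 0.70 and 0.65). With overexpression 9 of 10 reactive astrocyte markers were called higher in the authors' deposited table and none lower, with summed levels of 18070 and 31996 normalized counts. Gfap made up most of these sums, with a mean of 20260 beside a summed mean of 25033 for the list. Microglial markers rose for 6 of 12 there, beside 7.1% of all tested genes, with sums of 10138 and 13080. Their part in the Plat value was not tested. Plg, the plasminogen gene itself, was not tested in any table.

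Adaptors and kinases downstream of Trk receptors were called about as often as all genes at E1. Of 36 genes, the authors' deposited tables had 8 rises and 6 falls with shRNA-Ctrl, 8 rises and 2 falls in the shRNA-cFos arm, and 4 rises and 4 falls with overexpression. These are 38.9%, 27.8% and 22.2% of the list, beside 33.0%, 28.1% and 13.0% of all tested genes. Their medians were 0.02, 0.07 and -0.03, beside 0.01, -0.003 and -0.01 over all tested genes. With shRNA-Ctrl the largest were Sos1, a Ras exchange factor (0.65 ± 0.11), Crkl, an adaptor (0.59 ± 0.08), and Gab1, a docking protein (0.57 ± 0.10), in the authors' deposited table. With shRNA-cFos they were Mapk3, the kinase ERK1 (0.56 ± 0.10), Sh2b3, an adaptor (0.56 ± 0.12), and Cbl, a ubiquitin ligase (0.55 ± 0.10), in the authors' deposited table. With overexpression they were Grb2, which links receptors to Sos (0.55 ± 0.09), Shc3, a neuronal Shc adaptor (-0.50 ± 0.11), and Sh2b3 (0.34 ± 0.11), in the authors' deposited table.

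Between the hairpins, 5 of these 36 genes had a higher and 4 a lower response in the shRNA-cFos arm by the authors' deposited tables, or 25.0% of the list beside 23.8% of all genes. Among them were Mapk3 (0.76 ± 0.14) and Gab1 (-0.76 ± 0.15). Granule neuron markers differed in the direction of Mapk3, with the counts given for Ntrk3, and their part was not tested.

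Partners of p75NTR were led by Lingo1, a co-receptor of p75NTR in myelin inhibition, which rose by 1.27 ± 0.13 with shRNA-Ctrl and 1.40 ± 0.11 in the shRNA-cFos arm in the authors' deposited tables. Of the 16 genes, the authors' deposited tables had 6 rises and 2 falls with shRNA-Ctrl, 5 rises and 5 falls in the shRNA-cFos arm, and 0 rises and 2 falls with overexpression. These are 50%, 62.5% and 12.5% of the list, beside 33.0%, 28.1% and 13.0% of all tested genes. The medians were 0.17, -0.18 and -0.09. Bex1, a small p75NTR-binding protein, rose by 0.40 ± 0.09 with shRNA-Ctrl in the authors' deposited table. Adam17, a protease that sheds p75NTR, rose with shRNA-Ctrl by 0.34 ± 0.13 and fell with shRNA-cFos, at -0.51 ± 0.14, in the authors' deposited tables, a difference of -0.85 ± 0.19 (adjusted p = 0.00011). Traf4 fell with shRNA-cFos, at -0.54 ± 0.16 in the authors' deposited table. Ripk2, a kinase adaptor, and Zfp110, a zinc finger protein that binds p75NTR, had lower responses with shRNA-cFos, by -0.80 ± 0.23 and -0.63 ± 0.18. With overexpression Rtn4r, the Nogo receptor gene, fell in the authors' deposited table, at -0.24 ± 0.08.

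Transcription factors known to act on Bdnf moved in both directions at E1. Of 21 genes, the authors' deposited tables had 5 rises and 6 falls with shRNA-Ctrl, 6 rises and 2 falls in the shRNA-cFos arm, and 1 rise and 2 falls with overexpression. These are 52.4%, 38.1% and 14.3% of the list, beside 33.0%, 28.1% and 13.0% of all tested genes. The medians were 0.08, 0.08 and -0.02. Npas4, an activity-induced factor that binds Bdnf promoters, rose by 2.08 ± 0.23 with shRNA-Ctrl and 1.45 ± 0.25 with shRNA-cFos, and fell with overexpression, at -1.38 ± 0.19 (adjusted p = 4.2e-11), in the authors' deposited tables. Bhlhe40, a basic helix-loop-helix repressor, had the same signs, at 0.72 ± 0.09, 0.83 ± 0.08 and -0.52 ± 0.09 in the authors' deposited tables. Bdnf itself was at 0.11 with overexpression in the authors' deposited table, where Arnt2, a partner of Npas4, rose by 0.32 ± 0.09. Crem, a cAMP response factor, rose by 0.88 ± 0.13 and 0.54 ± 0.14 at E1 in the authors' deposited tables. Creb1, whose product is activated by phosphorylation, was at -0.03 ± 0.11 and 0.15 ± 0.11 there and did not pass.

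The E1 response of 3 such regulators was higher and of 2 lower in the shRNA-cFos arm by the authors' deposited tables. That is 23.8% of the list, beside 23.8% of all genes. Crtc1, a CREB coactivator, fell with shRNA-Ctrl (-0.42 ± 0.08) in the authors' deposited table and rose in that for shRNA-cFos (0.23 ± 0.07), a difference of 0.65 ± 0.10. Nfkb1 and Rela, which encode the p50 and p65 subunits of NF-kappa-B, rose with shRNA-Ctrl by 0.83 ± 0.09 and 0.69 ± 0.10 in the authors' deposited table. Their differences were -0.60 ± 0.14 and -0.61 ± 0.15, in the direction of the interferon response genes, whose part was not tested.

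**Figure D4:**
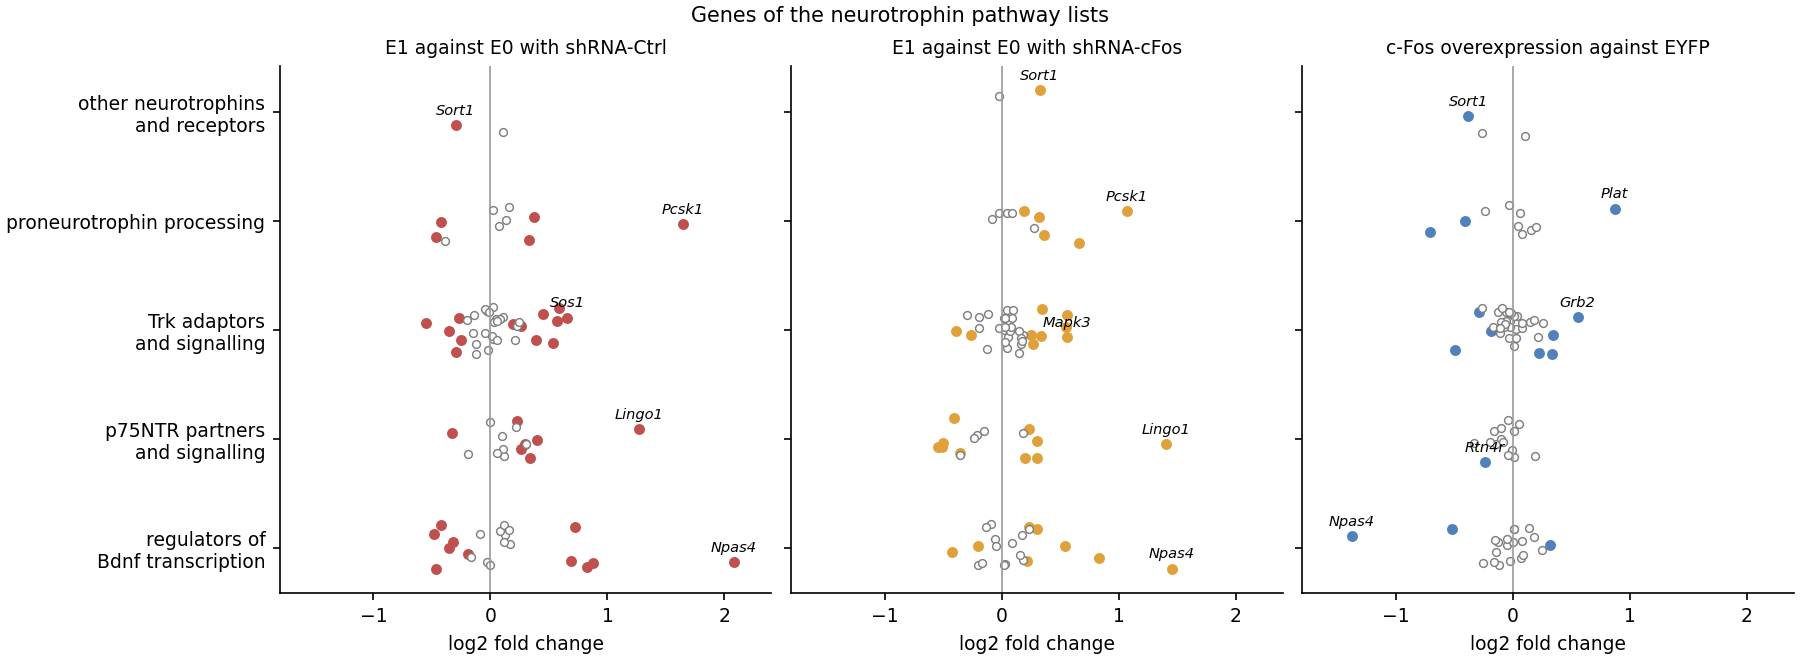
Log2 fold change of the tested genes of the 5 pathway lists in each comparison, without the few genes not reported here, with filled points for genes past an adjusted p of 0.05 and the called gene farthest from 0 among those plotted named in each row. Pcsk1, Lingo1 and Npas4 stand out at E1 with both hairpins, and Plat with overexpression, where Npas4 lies at -1.38.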

How the data were processed

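RNA-seq values of dentate gyrus were the authors' 3 deposited comparisons. TopHat2, DESeq2 and build mm9 are named in the submitters' processing notes, without versions. For the counter, annotation and strand setting nothing is given in the sources used here. For each gene the deposited files hold, per the file headers, a mean normalized count (a signal of counts over size factors), a log2 fold change with its standard error, a Wald score, a p-value and an adjusted p-value. The overexpression table names no direction, and its sign was taken from Fos. There were 0 columns of values per library. A call means a deposited adjusted p under 0.05. From overexpression, 27 gene names that had become dates were left out. A gene on the strand opposite to Bdnf, Gm45346, overlaps its exons, so reads of the 2 cannot be told apart without the strand setting.

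The largest standard errors, 0.29, 0.26 and 0.20, show that the deposited log2 values were shrunken by a zero-centred prior of standard deviation 0.59, 0.53 and 0.41. E1 responses were compared by subtracting log2 fold changes, with variances added, and a normal p adjusted over all 14386 genes tested in both tables. Group means were split from each mean count by its fold change. The shift between shRNA tables was the median log2 ratio of E0 levels over 12406 genes with a mean of at least 50, -0.43. Intervals are at 95%. Python 3.11.15, pandas 2.3.3 and scipy 1.17.1 were used.

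The 5 genes, the lists and the tests were chosen with earlier results of these data known. Besides the 5 genes and Fos, the text names up to 3 called genes with the largest changes per pathway list and comparison, and the 5 genes nearest in pattern to each called member. Results of some list genes are not reported here, though the list counts and medians include them. Other list genes, such as Creb1, Sorcs2, Tdo2, Plg, Slc1a2 and Gfap, were chosen after their values were seen.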

Additional observations from a re-analysis of the deposited data

Results flagged for a closer look

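These results are singled out because the E1 response differed between the hairpins by a test of the difference itself (shRNA-cFos minus shRNA-Ctrl, log2, computed from the authors' deposited tables). Ntrk3 had a difference of 0.42 and is the only one of the 5 neurotrophin genes here. Fos, the targeted gene, had -1.03. From the authors' deposited tables, higher responses with shRNA-cFos were computed for the kinase gene Mapk3 (0.76), the convertase genes Pcsk2 (1.08) and Pcsk5 (0.51), the coactivator gene Crtc1 (0.65) and the sortilin gene Sort1 (0.62). Lower ones from the authors' deposited tables were those of the protease genes Adam17 (-0.85) and Pcsk1 (-0.57), the signalling genes Gab1 (-0.76) and Ripk2 (-0.80), Zfp110 (-0.63), and the NF-kappa-B genes Nfkb1 (-0.60) and Rela (-0.61). Differences of either sign were called for 23.8% of all genes tested in both tables.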

How the results depend on the processing

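The 5 genes were recomputed at an adjusted p of 0.01 and 0.10, with a fold minimum of 1.5, with the prior removed, without a filter on mean count, with a minimum mean of 50 and with the median of all genes shifted to 0. Of 136 such values, 129 kept direction and call. Ntf3 with shRNA-cFos lost its call at 0.01, and it and Ntrk3 lost theirs with the fold minimum, which left 1 of 5 called in that arm and 0 for the difference between hairpins (2 of 5 had an unadjusted normal p under 0.05 there). At 0.10 Ntrk2 with shRNA-Ctrl and the Bdnf difference were called, the latter making 2 differences. The adjusted p of the Bdnf difference ran from 0.072 to 0.12. The Ntrk2 difference turned to 0.0083 with the median shifted. Prior removal put Ntf3 with overexpression at -1.07 and Bdnf with shRNA-Ctrl at 2.65. For Ngfr that step is uncertain, since its error is close to the largest found. Pathway genes called numbered 40, 34, 19 and 23 in the 3 tables and the difference, of 87, 87, 88 and 87 tested. These are 46.0%, 39.1%, 21.6% and 26.4%, beside 33.0%, 28.1%, 13.0% and 23.8% of all tested genes. The fold minimum left 10, 5, 5 and 14, and an adjusted p of 0.01 left 21 with shRNA-cFos, fewer by construction. No paired analysis was possible because the files hold no values per library, and for the same reason no replicate was left out and no count test was run. Depth per library is unknown.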
